A study of Anas platyrhynchos with 6 samples.

Results

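Secreted and cell-surface proteases that remodel ovarian tissue, together with the proteins that restrain them, were followed in the ovaries of laying ducks (Anas platyrhynchos). The members are the ADAM, ADAMTS and ADAMTS-like genes, the plasminogen activators, the TIMP inhibitors, the HTRA proteases and the serpins. They were taken by gene symbol, without the collagen chaperone SERPINH1, and where a symbol had several rows the one with the highest mean was used. The rule found 45 genes among 17169 transcripts, and 39 of them reached the mean of at least 1 FPKM that the test across all genes required. The rule matches symbols by name alone, but the gene families were chosen with earlier results of these data known.

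The ovarian tissue came from 6 ducks of a full-sib family, with no treatment named, 71 weeks old and killed after feed had been withheld. Of these, 3 had laid a high number of eggs (HEN) and 3 a low number (LEN), and each duck gave 1 library. Which part of the ovary was taken, and whether follicles were included, is not stated. Values are FPKM, in which fragments are divided by the length of the transcript and by the size of the library, so that levels of different genes can be set side by side. Steps between low values put the libraries at 18213744 to 19831761 fragments. At that depth 0.151 to 0.165 FPKM stood for 3 fragments of a 1 kb transcript.

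Matrix turnover in the ovary accompanies follicle growth, ovulation and regression. Plasminogen activators cut plasminogen into plasmin, a broad protease that digests fibrin and activates other proteases, and serpins stop both steps by forming dead-end complexes with the enzyme. ADAMs are membrane proteases that release the outer part of growth factors, receptors and adhesion proteins. ADAMTS enzymes are secreted and cut proteoglycans, procollagens and other matrix glycoproteins. TIMPs bind and block matrix metalloproteinases and several ADAMs and ADAMTS enzymes. The HTRA family are serine proteases found in the matrix or in mitochondria.

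The libraries of a group were not alike, and this bears on every result below. Across the transcripts tested, HEN replicates 2 and 3 correlated at 0.965 with each other (Pearson's r of log2 levels across genes) but at 0.748 and 0.752 with HEN replicate 1, which correlated at 0.933 to 0.964 with the LEN libraries. Of 9 oocyte and germ cell markers listed, 5 were matched, and their levels added up to 212, 9.32 and 6.78 FPKM for HEN replicates 1, 2 and 3, and to 325, 226 and 517 FPKM for LEN replicates 1, 2 and 3. The germ cell genes DAZL and DDX4 were at 0 FPKM in HEN replicate 2 and at 0.124 and 0.208 FPKM in HEN replicate 3. SYCP3, a meiosis gene of the same list, did not share this, at 4.47, 8.1 and 5.3 FPKM in HEN ovaries, against 3.55, 6.75 and 4.63 FPKM in LEN ovaries, and it made up most of the sum in HEN replicates 2 and 3. Of 8 granulosa markers 6 were matched, with a sum of 468, 92.0 and 125 FPKM in HEN ovaries, against 497, 295 and 306 FPKM in LEN ovaries. The fitted difference was above 0 for 2 of them (FST and INHBA) and below 0 for 4 (FSHR, FOXL2, CYP19A1 and STAR), and FOXL2, a transcription factor of granulosa cells, was at 175, 33.1 and 55.2 FPKM in HEN ovaries, against 152 to 154 FPKM in LEN ovaries. The summed level of 5 stroma fibroblast markers was 728, 995 and 947 FPKM in HEN ovaries, against 428, 457 and 229 FPKM in LEN ovaries. COL3A1 was the largest part of the HEN sums, at 424, 464 and 586 FPKM, against 148, 197 and 59.2 FPKM in LEN ovaries. The fitted difference was above 0 for all 5. PDGFRA, however, was at 22.0 FPKM in HEN replicate 1, within its LEN range of 13.8 to 27.6 FPKM. The summed level of 6 leukocyte markers was 663, 948 and 1127 FPKM in HEN ovaries, against 365, 639 and 332 FPKM in LEN ovaries. CD74 made up most of the leukocyte sum, at 522, 602 and 724 FPKM in HEN ovaries, against 282, 512 and 246 FPKM in LEN ovaries. The fitted difference was above 0 for 5 leukocyte markers and below 0 for 1, the T cell gene CD3E (-0.67). In tissue pieces, fewer cells of a type and less RNA per cell cannot be told apart. The part of these marker differences in the results on proteases and inhibitors was not tested.

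The members spanned a wide range of levels. Over the 6 libraries, 2 members averaged 100 FPKM or more, 19 lay between 10 and 100 FPKM, 18 between 1 and 10 FPKM and 6 under 1 FPKM. HTRA1, a secreted serine protease, led the HEN ovaries with 431 ± 319 FPKM (SD, n = 3), and SERPINE2, a cell-bound inhibitor of thrombin and of plasminogen activators, led the LEN ovaries with 185 ± 10.7 FPKM (SD, n = 3). In HEN, SERPINE2 was next at 287 FPKM, followed by TIMP2 at 137 and TIMP3 at 107 FPKM, and the wide spread of HTRA1 overlapped all of them. In LEN the next were SERPINF1 at 94.9, HTRA1 at 92.0 and PLAU at 89.0 FPKM, whose values overlapped between ducks. The members summed to 956, 2107 and 1647 FPKM in HEN replicates 1, 2 and 3 and to 1036, 855 and 818 FPKM in LEN replicates 1, 2 and 3. HTRA1 alone made up 8.62%, 33.7% and 30.4% of that sum in HEN, against 8.19%, 12.2% and 10.6% in LEN.

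**Figure D1:**
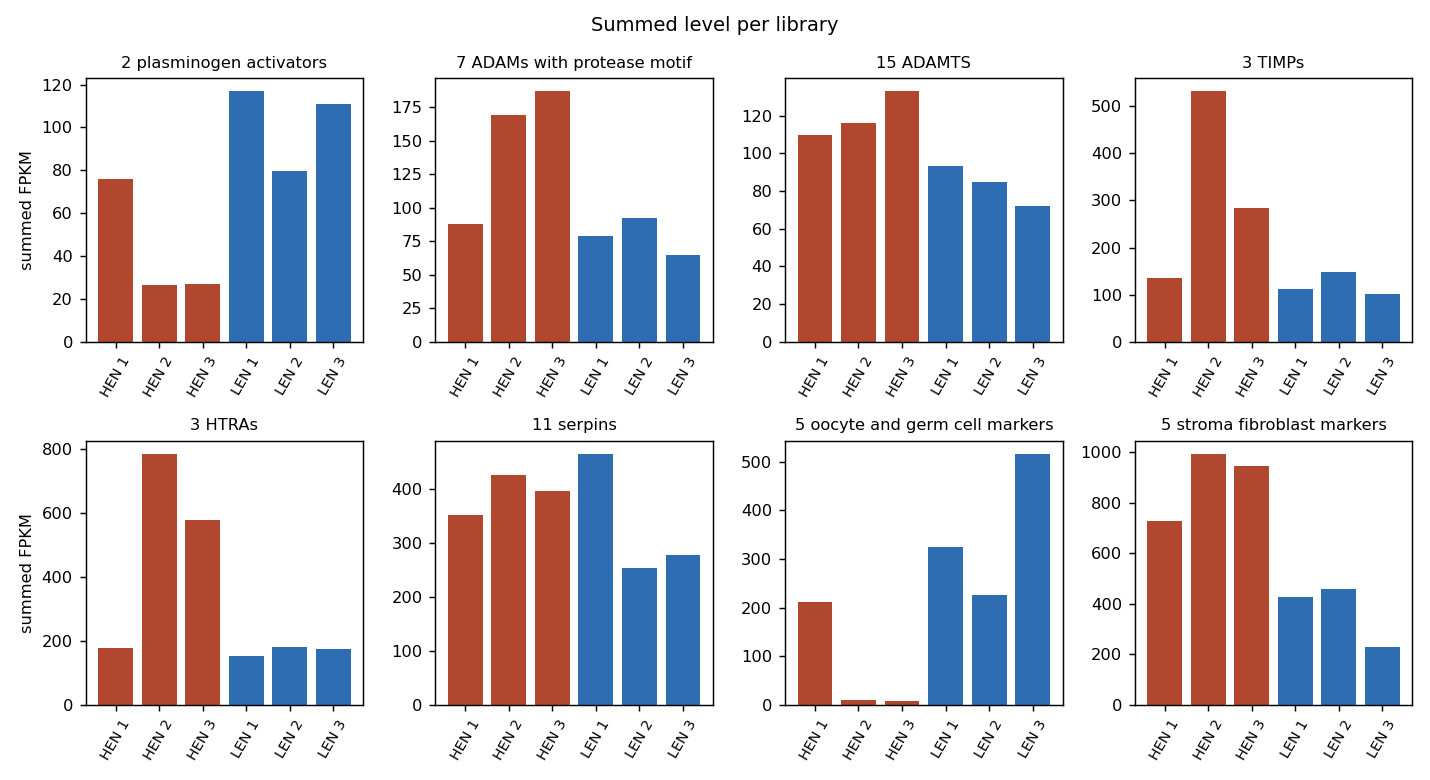
Summed FPKM (y axis) of 6 groups of members, and of oocyte and stroma markers, in each library (x axis, HEN in red and LEN in blue, 1 bar per library). The TIMP and HTRA sums are high in HEN replicates 2 and 3 (532 and 284 FPKM for TIMPs), the libraries in which oocyte markers sum to 9.32 and 6.78 FPKM and the plasminogen activators to 26.5 and 27.2 FPKM.

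Whether the ovaries of ducks with high and low egg number differ in these genes was tested with limma on log2(FPKM + 1) across 13328 transcripts. No member passed at an adjusted p under 0.05 in either direction, and neither did any other transcript (0% of all). At an unadjusted p under 0.05 there were 9 members with higher HEN levels, where 5.1% of all transcripts did so, and 3 with lower HEN levels, where 16.9% did so. The fitted difference was above 0 for 26 of the 39 members and for 37.1% of all transcripts. Its median was 0.64 over the members and -0.24 over all transcripts. The shift of all transcripts depends on scaling. The members' median was 0.87 with upper quartiles set equal, where all transcripts had a median of 0.01. Trimmed means gave 0.86 for members and 0.00 for all transcripts, and quantile normalization gave 1.02 and 0.07. Under the last, 7 members turned to a difference above 0: ADAM11, ADAM19, ADAM22, ADAMTS3, ADAMTS8, ADAMTS10 and ADAMTS17.

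The groups did not overlap for 10 members. In 7 of them every HEN value lay above every LEN value, where 6.92% of all transcripts did so: ADAM12, ADAM33, ADAMTS7, ADAMTS12, HTRA3, SERPINB10 and SERPIND1. In 3 every HEN value lay below every LEN value, where 13.4% of all transcripts did so: PLAU, SERPINI1 and ADAM11. Against the range of the 3 LEN libraries, HEN replicate 1 was within it for 21 of 39 members, above it for 13 and below it for 5. HEN replicate 2 was within it for 4, above for 24 and below for 11, and HEN replicate 3 was within it for 1, above for 25 and below for 13. Over all transcripts the shares above the LEN range were 20.6%, 27.0% and 27.9%, and those below it 20.3%, 54.7% and 54.6%. The median SD of a member on the log2 scale was 0.71 within HEN and 0.27 within LEN, against 0.47 and 0.28 for all transcripts. Of the 39 members, 35 varied more within HEN than within LEN. The same share over all transcripts was not computed, so this count does not set the members apart from other genes. For single genes below, calls without HEN replicate 1 are given. That fit called 11.8% of all transcripts as higher and 37% as lower, and leaving out any other single library called none. The library left out is the HEN library most like LEN, so such a call is no separate support for a gene.

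**Figure D2:**
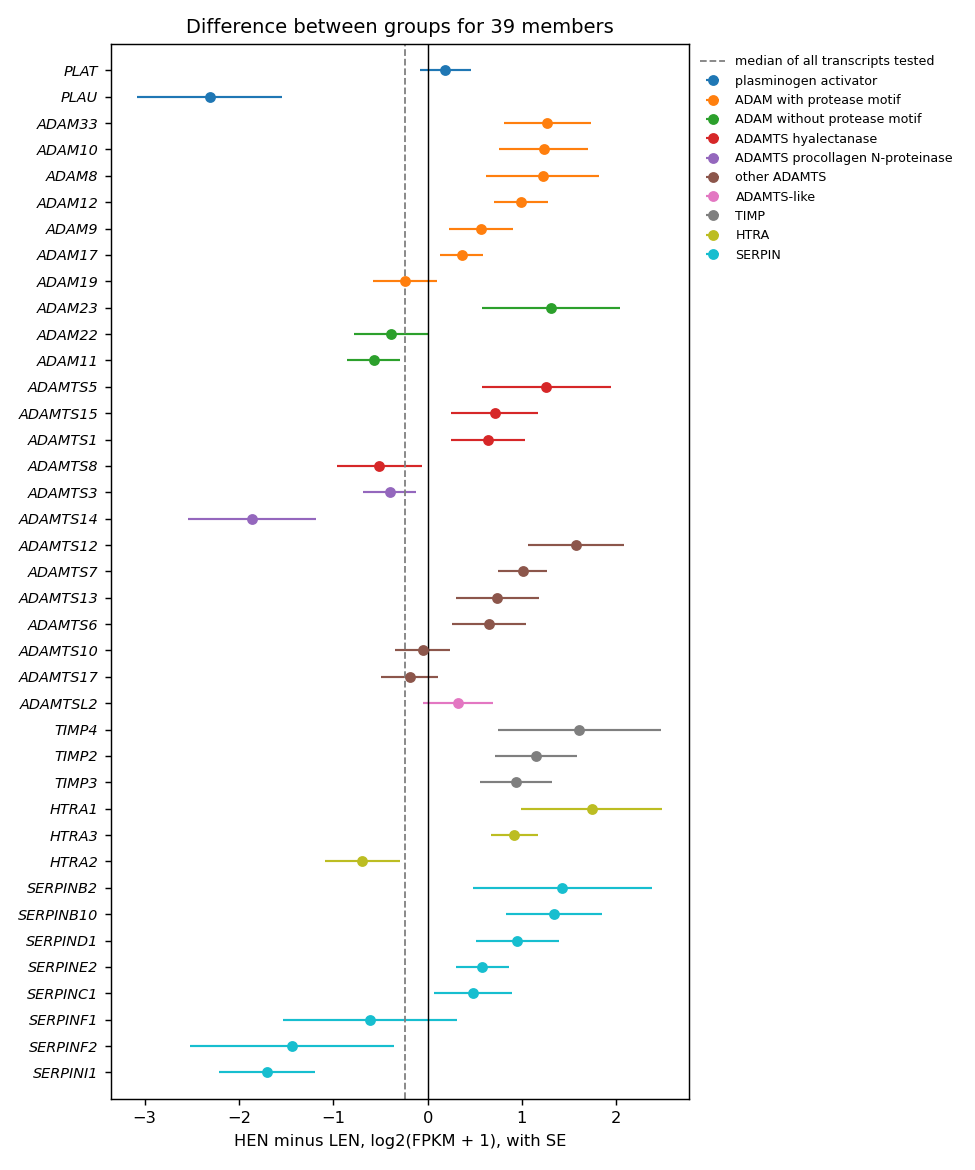
Fitted HEN minus LEN difference of log2(FPKM + 1) with its standard error (x axis) for the 39 members tested (y axis), coloured by role. The dashed line is the median of all transcripts tested, -0.24. TIMPs and most ADAMs with a protease motif lie right of 0, whereas PLAU (-2.31), ADAMTS14 (-1.86) and SERPINI1 (-1.70) lie farthest to the left.

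The plasminogen activators differed from each other. PLAU, the urokinase-type activator (scaffold KB742808.1 from 1076092 to 1083894), reached 61.9, 13.5 and 5.26 FPKM in the HEN ovaries (replicates 1, 2 and 3), while the LEN ovaries held 103, 67.0 and 97.1 FPKM. All HEN values were below all LEN values, although HEN replicate 1 lay close to LEN replicate 2. The difference was -2.31 ± 0.77 (SE) with an adjusted p of 0.226 in limma, and it was the lowest of all members. PLAT, the tissue-type activator, was at 13.9, 13 and 22.0 FPKM in HEN ovaries, against 14.4, 12.7 and 14.3 FPKM in LEN ovaries, so that the groups overlapped (difference 0.19 ± 0.27, SE, and -0.03 without HEN replicate 3). PLAU thus made up 81.6%, 50.9% and 19.3% of the activator sum in HEN and 84.0% to 87.7% in LEN. Without HEN replicate 1, PLAU passed as lower in limma (difference -3.22 ± 0.36, SE, adjusted p = 2.18e-04), and without HEN replicates 2 and 3 its difference was -0.49 ± 0.33 (SE).

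Inhibitors of plasminogen activators and plasmin went several ways. SERPINE2 was at 187, 337 and 336 FPKM in HEN ovaries, against 191, 173 and 192 FPKM in LEN ovaries. HEN replicates 2 and 3 stood above all LEN libraries while HEN replicate 1 lay among them (difference 0.58 ± 0.28, SE, adjusted p = 0.241). The PLAU level divided by the SERPINE2 level was 0.331, 0.0401 and 0.0157 in HEN and 0.539, 0.387 and 0.506 in LEN. The groups did not overlap on this ratio, but PLAU alone already separated them, and HEN replicate 1 again lay close to LEN replicate 2. Without HEN replicate 1, limma called SERPINE2 as higher (adjusted p = 0.00851).

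SERPINI1, neuroserpin, which inhibits the tissue-type activator in mammals, was at 19.5, 5.44 and 5.08 FPKM in HEN ovaries, against 25.1, 23.8 and 41.5 FPKM in LEN ovaries. All HEN values were below all LEN values, with a difference of -1.70 ± 0.51 (SE, adjusted p = 0.226). SERPINB2, plasminogen activator inhibitor 2 in mammals, was at 0.888, 27.1 and 6.88 FPKM in HEN ovaries, against 0.543, 3.32 and 2.19 FPKM in LEN ovaries (difference 1.43 ± 0.95, SE). Its high value rested on HEN replicate 2, and without HEN replicates 2 and 3 the difference was -0.55. SERPINF2, the plasmin inhibitor alpha-2-antiplasmin, was at 19.1, 0.622 and 0.280 FPKM in HEN ovaries, against 18.1, 7.61 and 4.02 FPKM in LEN ovaries. HEN replicate 1 was the highest and HEN replicates 2 and 3 were the lowest of the 6 libraries. Without HEN replicate 1, limma called SERPINI1 (adjusted p = 3.68e-04) and SERPINF2 (0.00302) as lower and SERPINB2 (0.00945) as higher.

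**Figure D3:**
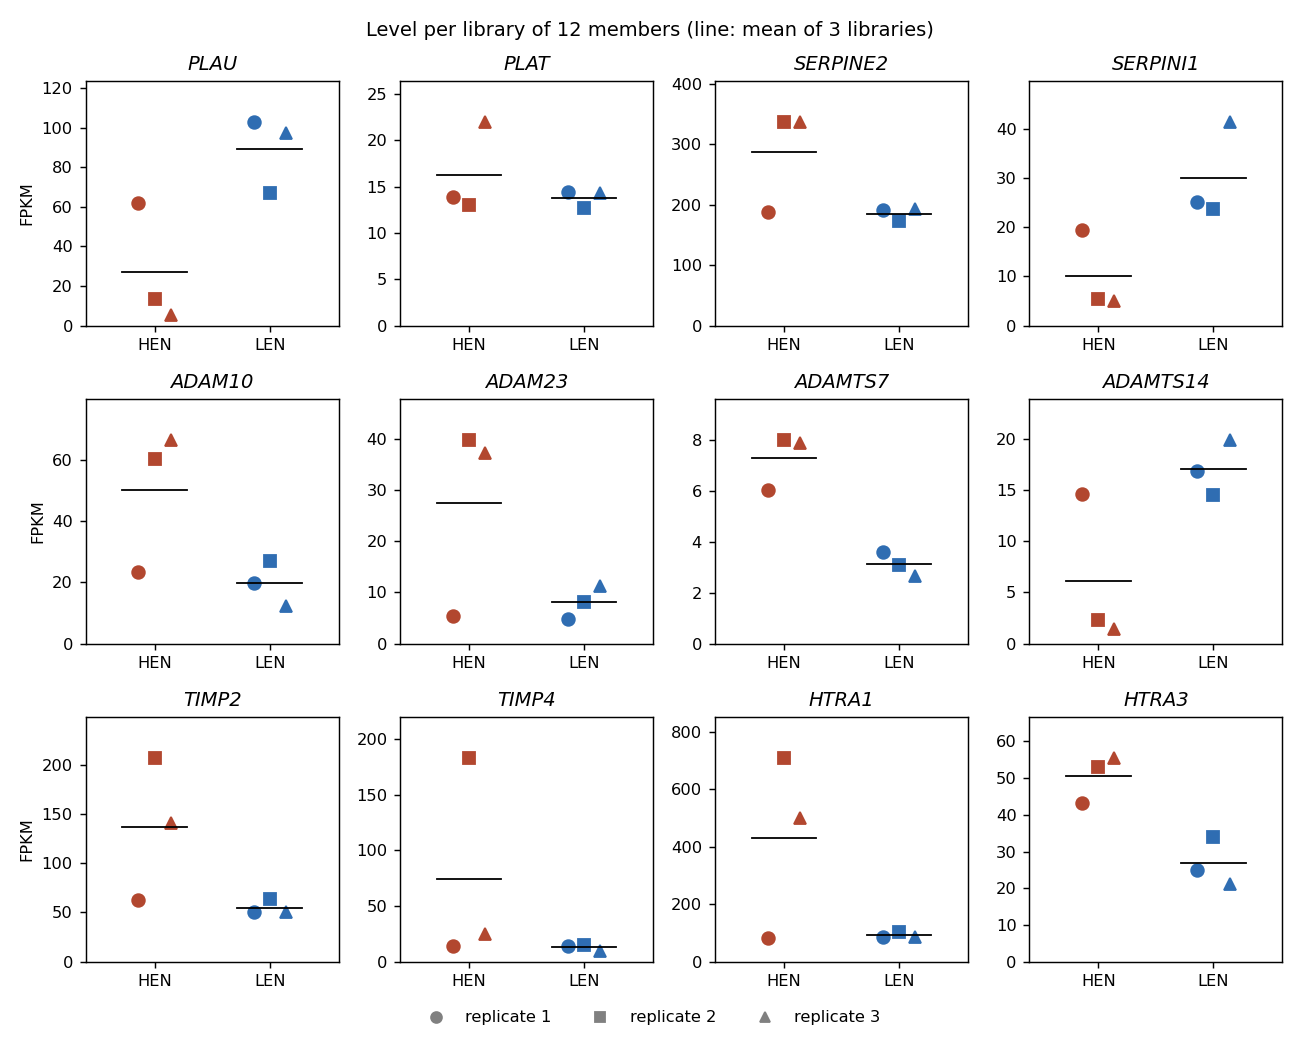
FPKM (y axis, from 0) of 12 members in each library, grouped as HEN and LEN (x axis). Point shapes stand for replicates 1, 2 and 3 and the line for the mean of 3 libraries. In PLAU, SERPINI1, ADAMTS7 and HTRA3 the groups do not overlap, whereas in HTRA1 and ADAM23 HEN replicate 1 (82.4 and 5.44 FPKM) lies at the level of LEN.

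The other serpins were those of the clotting system, a leukocyte serpin and a secreted factor without protease inhibition. SERPIND1, heparin cofactor II, an inhibitor of thrombin, was at 9.41, 28.1 and 9.87 FPKM in HEN ovaries, against 8.0, 5.94 and 6.28 FPKM in LEN ovaries. All HEN values were above LEN, HEN replicates 1 and 3 only slightly (difference 0.95 ± 0.44, SE). SERPIND1 lies within the position of PI4KA on the opposite strand, which was at 30.6, 12.7 and 14.2 FPKM in HEN ovaries, against 27.6, 33.6 and 24.3 FPKM in LEN ovaries. Strandedness is not stated, so fragments could be mixed where exons of such genes overlap, and whether exons overlap was not tested. Leaving out HEN replicate 1, SERPIND1 was called as higher in limma (adjusted p = 0.0325).

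SERPINC1, antithrombin, was at 0.969, 3.96 and 2.53 FPKM in HEN ovaries, against 1.80, 0.999 and 1.27 FPKM in LEN ovaries. SERPINB10, known as bomapin in human blood cells, was at 4.12, 3.26 and 9.71 FPKM in HEN ovaries, against 0.424, 2.79 and 1.64 FPKM in LEN ovaries, with no overlap between groups (difference 1.34 ± 0.51, SE, adjusted p = 0.226). HEN replicate 2 was only slightly above LEN replicate 2, and without HEN replicate 1 SERPINB10 was called as higher in limma (adjusted p = 0.0411). SERPINF1, the pigment epithelium-derived factor, which does not inhibit proteases, was at 112, 20.9 and 25.9 FPKM in HEN ovaries, against 221, 35.8 and 28 FPKM in LEN ovaries. It stood high in HEN replicate 1 and LEN replicate 1, and without LEN replicate 1 the direction of its difference turned (0.31, against -0.61 with all libraries).

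Of 7 ADAMs that carry the zinc-binding protease motif in vertebrates, 6 had a fitted difference above 0, and the median was 0.99. ADAM10, which releases Notch receptors and cadherins, was at 23.4, 60.2 and 66.6 FPKM in HEN ovaries, against 19.7, 27.0 and 12.4 FPKM in LEN ovaries (difference 1.23 ± 0.47, SE, adjusted p = 0.226). ADAM17, which releases TNF and ligands of the EGF receptor, was at 25.9, 35.0 and 35.6 FPKM in HEN ovaries, against 24.2, 27.5 and 22.0 FPKM in LEN ovaries (difference 0.36 ± 0.23, SE). ADAM9, a widely expressed sheddase, was at 17.9, 36.6 and 41.2 FPKM in HEN ovaries, against 20.6, 22.0 and 17.6 FPKM in LEN ovaries (difference 0.57 ± 0.34, SE). In these 3 sheddases HEN replicates 2 and 3 stood above all LEN libraries and HEN replicate 1 lay within the LEN range. Leaving out that library, limma called ADAM10 (adjusted p = 0.0022) and ADAM9 (0.00621) as higher, but not ADAM17 (0.0622).

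ADAM12 and ADAM33 separated the groups in all 3 HEN libraries. ADAM12, known from fusing muscle cells and from mesenchyme, was at 7.62, 13.6 and 9.33 FPKM in HEN ovaries, against 4.56, 4.01 and 5.03 FPKM in LEN ovaries (difference 0.99 ± 0.29, SE, adjusted p = 0.226). ADAM33, known from mesenchymal cells in mammals, was at 8.55, 13.7 and 28.1 FPKM in HEN ovaries, against 6.35, 7.29 and 3.73 FPKM in LEN ovaries (difference 1.27 ± 0.46, SE, adjusted p = 0.226). Without HEN replicates 2 and 3 their differences were 0.64 ± 0.36 and 0.53 ± 0.42 (SE). ADAM8, an ADAM of leukocytes, was at 0.788, 8.52 and 3.98 FPKM in HEN ovaries, against 0.573 to 1.21 FPKM in LEN ovaries. ADAM19 was at 3.74, 1.33 and 2.51 FPKM in HEN ovaries, against 2.81 to 3.13 FPKM in LEN ovaries, with HEN libraries on both sides of the LEN range. Leaving out HEN replicate 1, limma called ADAM12 (adjusted p = 0.00781), ADAM33 (0.00632) and ADAM8 (0.00366) as higher.

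The 3 ADAMs that lack the protease motif act as receptors or adhesion proteins in the nervous system of mammals. ADAM23 was at 5.44, 39.8 and 37.2 FPKM in HEN ovaries, against 4.81, 8.14 and 11.3 FPKM in LEN ovaries (difference 1.31 ± 0.73, SE, adjusted p = 0.282). It was high in HEN replicates 2 and 3 and within the LEN range in HEN replicate 1, and without HEN replicates 2 and 3 its difference was -0.43. It was called as higher in limma without HEN replicate 1 (adjusted p = 8.39e-04). ADAM11 was at 1.57, 1.34 and 0.952 FPKM in HEN ovaries, against 2.28, 2.5 and 2.31 FPKM in LEN ovaries, lower in every HEN library (difference -0.57 ± 0.28, SE), but 0.02 after quantile normalization. ADAM22 was at 1.49, 1.13 and 0.249 FPKM in HEN ovaries, against 1.61, 2.02 and 0.886 FPKM in LEN ovaries.

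The ADAMTS group that cuts large proteoglycans such as versican was led by ADAMTS1, an enzyme induced in follicles before ovulation in mammals. ADAMTS1 was at 44.7, 23.6 and 34.4 FPKM in HEN ovaries, against 30.4, 24.2 and 12.4 FPKM in LEN ovaries (difference 0.64 ± 0.39, SE). The groups overlapped, and HEN replicate 1 was the highest library. ADAMTS5, its neighbour on the scaffold, was at 4.54, 24.6 and 31.9 FPKM in HEN ovaries, against 6.37, 8.31 and 3.94 FPKM in LEN ovaries (difference 1.26 ± 0.68, SE, adjusted p = 0.271), and its second row held nearly the same values. The level of ADAMTS5 divided by that of ADAMTS1 was 0.101, 1.04 and 0.928 in HEN and 0.210 to 0.344 in LEN, so that in HEN replicate 2 both were about equal. ADAMTS15 was at 1.01, 5.38 and 2.19 FPKM in HEN ovaries, against 0.806 to 1.33 FPKM in LEN ovaries, and ADAMTS8 at 5.79, 1.33 and 2.60 FPKM in HEN ovaries, against 3.23 to 5.77 FPKM in LEN ovaries. Leaving out HEN replicate 1, limma called ADAMTS5 (adjusted p = 9.59e-04) and ADAMTS15 (0.0379) as higher and ADAMTS8 (0.0497) as lower.

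Among the enzymes that remove the amino-terminal propeptide of fibrillar procollagens, ADAMTS14 and ADAMTS3 went the same way and ADAMTS2 the other way. ADAMTS14 was at 14.6, 2.28 and 1.39 FPKM in HEN ovaries, against 16.9, 14.5 and 19.9 FPKM in LEN ovaries (difference -1.86 ± 0.68, SE, adjusted p = 0.226). HEN replicate 1 lay just inside the LEN range and HEN replicates 2 and 3 far below it. In limma without HEN replicate 1, ADAMTS14 was called as lower (adjusted p = 1.39e-04). ADAMTS3 was at 4.08, 2.89 and 2.68 FPKM in HEN ovaries, against 3.80, 4.52 and 5.27 FPKM in LEN ovaries (difference -0.40 ± 0.28, SE). For ADAMTS3 too, HEN replicate 1 lay within the LEN range and HEN replicates 2 and 3 below it. ADAMTS2, not a member because the table names it only through its Entrez identifier and given here after its values were seen, was at 10.6, 37.2 and 33.3 FPKM in HEN ovaries, against 7.04, 8.40 and 5.32 FPKM in LEN ovaries (difference 1.66 ± 0.48, SE, adjusted p = 0.226, and 2.22e-04 without HEN replicate 1). Of these 3 enzymes, ADAMTS2 was thus the highest in HEN replicates 2 and 3 and ADAMTS14 the highest in the other libraries.

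Of the other ADAMTS genes, ADAMTS7 and ADAMTS12, a related pair that cuts cartilage oligomeric matrix protein, were higher in every HEN library. ADAMTS7 was at 6.03, 8.0 and 7.89 FPKM in HEN ovaries, against 3.61, 3.07 and 2.66 FPKM in LEN ovaries (difference 1.01 ± 0.26, SE, adjusted p = 0.226). ADAMTS12 was at 7.14, 17.2 and 27.7 FPKM in HEN ovaries, against 5.44, 5.83 and 2.71 FPKM in LEN ovaries (difference 1.57 ± 0.51, SE, adjusted p = 0.226). Each spans the position of a short unnamed gene on the opposite strand. Whether exons overlap, and so whether fragments of the pair could be mixed, was not tested. The gene within ADAMTS7 was at 9.21, 11.1 and 9.61 FPKM in HEN ovaries, against 6.5, 2.1 and 3.18 FPKM in LEN ovaries, and that within ADAMTS12 at 16.6, 35.5 and 50.6 FPKM in HEN ovaries, against 5.99, 10.7 and 7.93 FPKM in LEN ovaries. Both were thus higher in every HEN library, like the members they overlap. ADAMTS13, which trims von Willebrand factor, was at 3.82, 13.4 and 6.59 FPKM in HEN ovaries, against 2.94 to 4.87 FPKM in LEN ovaries, beside 34.5, 108 and 111 FPKM of VWF in HEN and 11.6, 46.2 and 13.8 FPKM in LEN ovaries. ADAMTS6 had a difference of 0.65, while ADAMTS10 (-0.05) and ADAMTS17 (-0.19) were near 0 and changed sign to 0.19 and 0.05 after upper quartile scaling. ADAMTSL2, a protease-less relative that binds fibrillin, was at 6.91, 10.2 and 3.87 FPKM in HEN ovaries, against 6.45, 4.16 and 4.75 FPKM in LEN ovaries, with overlapping groups. Leaving out HEN replicate 1, limma called ADAMTS7 (adjusted p = 0.00794), ADAMTS12 (0.00162) and ADAMTS13 (0.026) as higher.

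All 3 TIMPs had a fitted difference above 0, and in each HEN replicates 2 and 3 were above all LEN libraries and HEN replicate 1 was within their range. TIMP2 was at 62.7, 207 and 141 FPKM in HEN ovaries, against 50.1, 64.2 and 50.6 FPKM in LEN ovaries (difference 1.15 ± 0.43, SE, adjusted p = 0.226). TIMP3, which is bound to the matrix and also inhibits ADAM17 and several ADAMTS enzymes, was at 58.7, 142 and 119 FPKM in HEN ovaries, against 48.7, 70.0 and 40.1 FPKM in LEN ovaries (difference 0.94 ± 0.38, SE, adjusted p = 0.226). TIMP4 was at 14.2, 183 and 25.0 FPKM in HEN ovaries, against 13.7, 15 and 9.96 FPKM in LEN ovaries (difference 1.61 ± 0.86, SE, adjusted p = 0.269), so that its HEN mean rested on replicate 2. TIMP3 and TIMP4 lie inside the synapsin genes SYN3 and SYN2 on the opposite strand, which did not exceed 2.48 and 5.09 FPKM in any library. The TIMP sum divided by the sum of ADAMs with a protease motif and ADAMTS enzymes was 0.686, 1.87 and 0.888 in HEN and 0.651, 0.845 and 0.738 in LEN. On that ratio HEN replicate 1 lay within the LEN range. Without HEN replicate 1, limma called TIMP2 (adjusted p = 8.49e-04), TIMP3 (0.00369) and TIMP4 (0.0191) as higher.

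The HTRA genes showed 3 different patterns. HTRA1 was at 82.4, 709.7 and 500.0 FPKM in HEN ovaries, against 84.8, 105 and 86.6 FPKM in LEN ovaries (difference 1.74 ± 0.75, SE, adjusted p = 0.227). HEN replicate 1 was the lowest of all libraries and HEN replicates 2 and 3 were 7.71 and 5.43 times the LEN mean. HTRA1 ranked 79 and 92 among all transcripts in HEN replicates 2 and 3, against 929 in HEN replicate 1 and 576 to 1119 in LEN. Without HEN replicate 1 it passed as higher in limma (difference 2.69 ± 0.24, SE, adjusted p = 7.43e-05), and without HEN replicates 2 and 3 its difference was -0.15.

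HTRA3, a secreted relative of HTRA1, was at 43.3, 53.1 and 55.5 FPKM in HEN ovaries, against 24.9, 34.1 and 21.3 FPKM in LEN ovaries. The groups did not overlap, HEN replicate 1 included (difference 0.92 ± 0.25, SE, adjusted p = 0.226), and the fold of the means was 1.89. Without HEN replicates 2 and 3 the difference was 0.70 ± 0.33 (SE, adjusted p = 1.0). HTRA2, the mitochondrial member, was at 52.6, 22.5 and 21.5 FPKM in HEN ovaries, against 42.3, 39.9 and 65.9 FPKM in LEN ovaries (difference -0.69 ± 0.40, SE). HEN replicates 2 and 3 were below every LEN library and HEN replicate 1 was within their range. Without HEN replicate 1, limma called HTRA3 as higher (adjusted p = 0.00764) and HTRA2 as lower (0.00744).

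**Figure D4:**
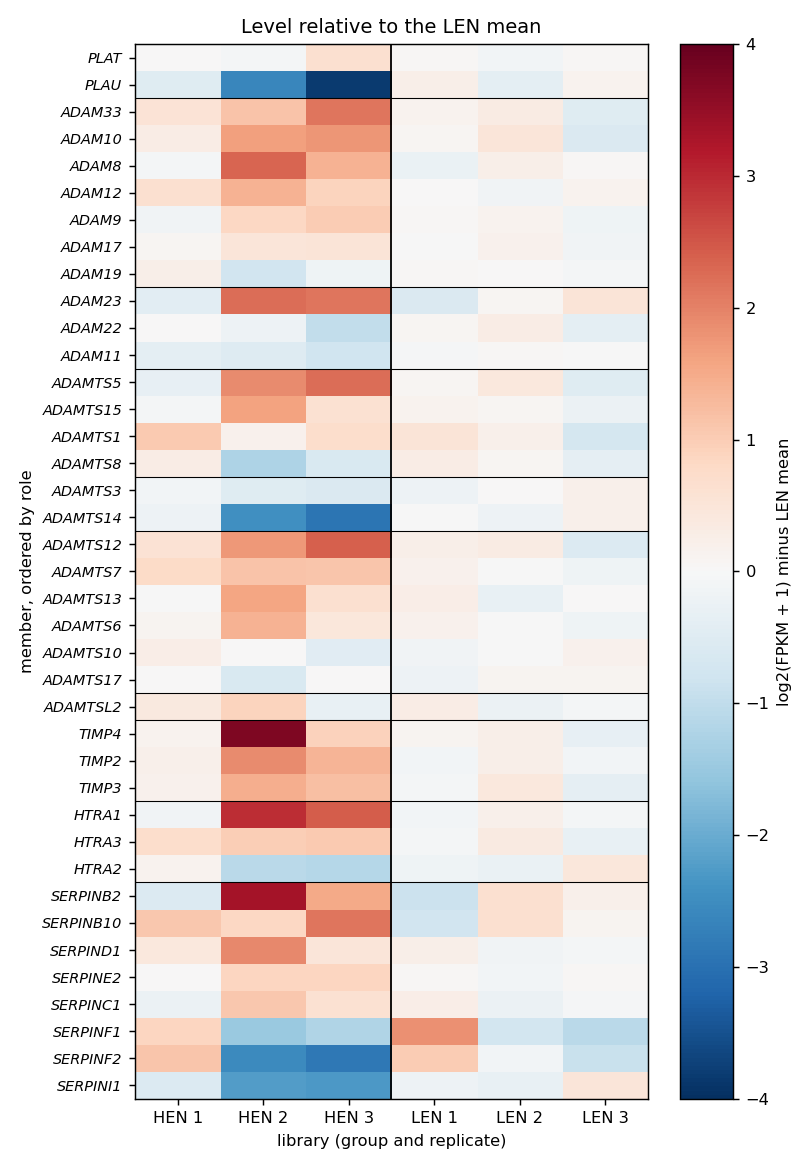
Level of each of the 39 members tested (rows, ordered by role) in each library (columns), as log2(FPKM + 1) minus the mean of the 3 LEN libraries. Red is above and blue below the LEN mean. HEN replicates 2 and 3 carry the strong colours, such as HTRA1 in red and PLAU and ADAMTS14 in blue. TIMP4 is strongly red in HEN replicate 2 only. ADAM12, ADAMTS7 and HTRA3 are red in all 3 HEN libraries.

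Leaving out HEN replicate 1, limma called 20 members as higher in HEN, where 11.8% of all transcripts were called, and 6 as lower, where 37% were called. At an unadjusted p under 0.05 these were 23 higher, against 14.9% of all transcripts, and 6 lower, against 41%. The 6 called as lower without HEN replicate 1 were PLAU, ADAMTS14, SERPINI1, SERPINF2, HTRA2 and ADAMTS8. The HEN libraries left are those with oocyte marker sums of 9.32 and 6.78 FPKM, against 226 to 517 FPKM in LEN ovaries. With arrayWeights, which give each library a weight by its spread, limma called 21 as higher, where 16.5% of all transcripts were called. It called 9 as lower, where 43% were called. The weights come from these same values, in which HEN replicate 1 stood apart from the other HEN libraries. This run is therefore no separate support for the calls made without that library. Without HEN replicates 2 and 3, 0 members were called (0.0075% of all transcripts higher, 0% lower) and 0 had an unadjusted p under 0.05 (1.7% of all higher, 1.05% lower). The members' median was 0.12. The lone HEN library is then assumed to vary like the LEN libraries.

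Several members are adjacent genes on a scaffold, with no other gene listed between them. SERPINF2 and SERPINF1 lie 4117 bases apart on scaffold KB743696.1 on the same strand, and both were highest in HEN replicate 1 and LEN replicate 1. The steroid synthesis gene CYP17A1, picked after its values were seen, was also highest in this pair of libraries (239.6 and 521 FPKM). Its other HEN values were 0.0945 and 0.146 FPKM, its other LEN values 33.5 and 185 FPKM. Of 5 theca and steroid cell markers listed, only CYP17A1 and TCF21 were matched. TCF21 did not share this pattern (HEN: 34.4, 37.4 and 33.9 FPKM, LEN: 23.7, 15.5 and 17.4 FPKM). Its fitted difference was 0.89, against -4.48 for CYP17A1. In other lists, STAR (191 and 253 FPKM) and the liver marker APOH (2.65 and 7.79 FPKM) were also highest in HEN replicate 1 and LEN replicate 1. Both were likewise picked after their values were seen, and no other matched granulosa or liver marker was highest in that pair. Whether SERPINF2 and SERPINF1 follow a cell type was not tested. SERPINB2 and SERPINB10, 4290 bases apart on KB743404.1, differed in order: HEN replicate 2 was highest for SERPINB2 and HEN replicate 3 for SERPINB10. These serpins belong to a family of similar genes, between which the counting, not stated, could have split fragments. ADAMTS8 and ADAMTS15, 17653 bases apart on opposite strands of KB743106.1, were opposite in HEN replicate 2, with ADAMTS8 at its lowest and ADAMTS15 at its highest. ADAMTS5 and ADAMTS1 lie 33270 bases apart on KB742543.1 and differed most in HEN replicate 1, where ADAMTS1 was at its highest.

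**Figure D5:**
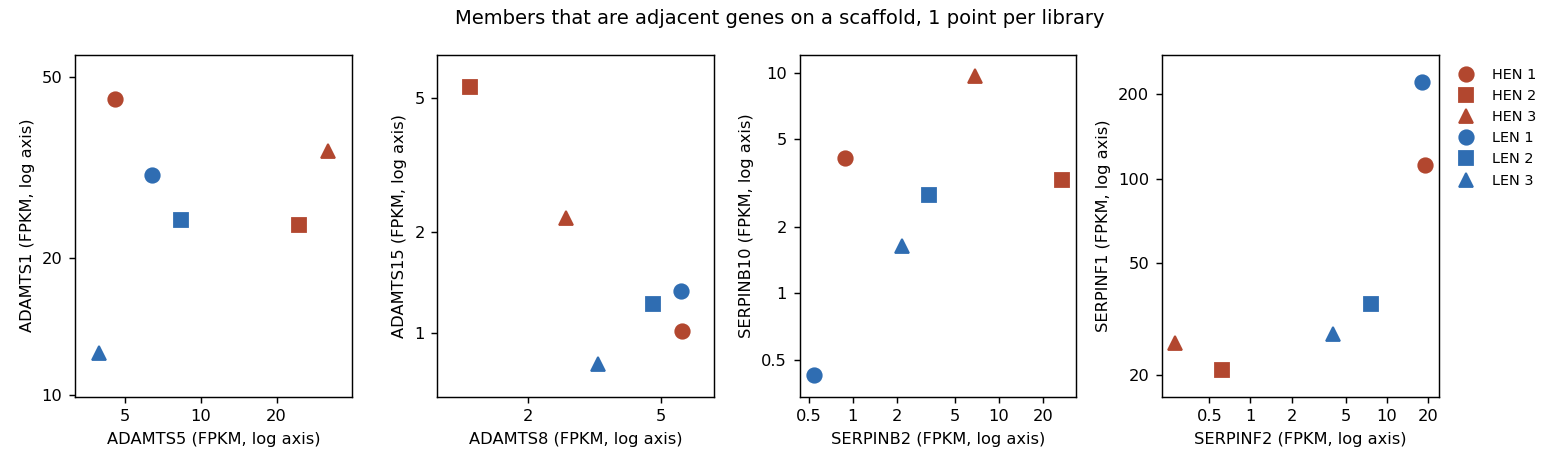
FPKM of 4 pairs of adjacent members, 1 point per library (both axes logarithmic, HEN in red and LEN in blue, shapes for replicates). SERPINF2 and SERPINF1 are both high in HEN replicate 1 (19.1 and 112 FPKM) and LEN replicate 1 (18.1 and 221 FPKM), whereas ADAMTS8 is lowest where ADAMTS15 is highest.

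The 6 members under a mean of 1 FPKM were not tested. ADAMTS18, ADAMTS19 and ADAMTS20 reached at most 1.02, 0.931 and 0.754 FPKM in HEN ovaries, against 1.30, 0.510 and 1.49 FPKM in LEN ovaries. SERPINA10 was at most 0.202 FPKM in HEN ovaries, against 0.399 FPKM in LEN ovaries. SERPINB5 and SERPINE3 did not exceed 0.0489 FPKM in any library, and several of their values were 0. With no filter, 28 of 45 members had a difference above 0, against 36.7% of all transcripts.

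Partners of these systems were described from lists of symbols, and the genes named from them were picked after their values were seen. Of 27 listed genes that work with plasmin or thrombin 14 were tested, of which 0 passed in limma, 5 with higher and 2 with lower HEN levels had an unadjusted p under 0.05 (5.1% and 16.9% of all transcripts), and the median difference was 0.73 (-0.24 over all transcripts). ANXA2, a plasminogen-binding annexin, was at 192, 450.3 and 308 FPKM in HEN ovaries, against 103, 127 and 145 FPKM in LEN ovaries, with no overlap. F2R, a thrombin receptor, was at 3.96, 25.0 and 16.5 FPKM in HEN ovaries, against 2.54 to 4.74 FPKM in LEN ovaries. VLDLR, which clears complexes of serpins with proteases and is the yolk receptor of avian oocytes, was at 555, 30.1 and 43.9 FPKM in HEN ovaries, against 485, 458 and 624 FPKM in LEN ovaries. ST14, the membrane protease matriptase, was at 19.0, 7.63 and 5.25 FPKM in HEN ovaries, against 20.6 to 24.2 FPKM in LEN ovaries, below LEN in every HEN library.

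Of 35 listed partners of ADAM shedding 27 were tested, of which 0 passed, 2 with higher and 4 with lower HEN levels had an unadjusted p under 0.05, shares near those of all transcripts (5.1% and 16.9%), and the median was 0.00. AREG, an EGF receptor ligand released by ADAM17, was at 53.0, 1.08 and 0.516 FPKM in HEN ovaries, against 67.1, 42.1 and 86.1 FPKM in LEN ovaries. HBEGF, another such ligand, was at 18.6, 8.02 and 7.97 FPKM in HEN ovaries, against 25.3, 18.9 and 38.7 FPKM in LEN ovaries. It was lower in every HEN library, but HEN replicate 1 was only slightly below LEN replicate 2. TNFRSF1A, a TNF receptor shed by ADAM17, was at 24.5, 39.8 and 64.1 FPKM in HEN ovaries, against 16.7, 23.6 and 10.8 FPKM in LEN ovaries. It was higher in every HEN library, but HEN replicate 1 was only slightly above LEN replicate 2. Of the 27 tested, all HEN values were above LEN in 3 and below LEN in 2 (6.92% and 13.4% of all transcripts). RHBDF1 was at 33.6, 18.4 and 13.5 FPKM in HEN ovaries, against 31.6 to 39.7 FPKM in LEN ovaries, whereas RHBDF2, the other rhomboid partner of ADAM17, was at 10.5 to 15.6 FPKM in HEN ovaries, against 12.9 to 13.2 FPKM in LEN ovaries.

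Of 29 listed matrix substrates and partners of ADAMTS enzymes 22 were tested, of which 0 passed, 8 with higher and 0 with lower HEN levels had an unadjusted p under 0.05 (5.1% and 16.9% of all transcripts), and the median was 0.66. In 10 of them all HEN values were above LEN (6.92% of all transcripts). The proteoglycan gene VCAN was at 5.29, 4.99 and 8.45 FPKM in HEN ovaries, against 3.77, 4.01 and 1.93 FPKM in LEN ovaries, and FBN1, fibrillin, at 27.0, 64.4 and 75.7 FPKM in HEN ovaries, against 16.0 to 24.4 FPKM in LEN ovaries. FN1, fibronectin, was at 94.0, 684 and 447 FPKM in HEN ovaries, against 62.6 to 68.8 FPKM in LEN ovaries. Of 26 listed inhibitors outside the member families 11 were tested, of which 0 passed, 1 with a higher and 0 with a lower HEN level had an unadjusted p under 0.05 (5.1% and 16.9% of all transcripts), and the median was 0.47. That gene was TFPI2, a Kunitz-type inhibitor of plasmin, at 611, 1238 and 844 FPKM in HEN ovaries, against 393, 456 and 335 FPKM in LEN ovaries (difference 1.13 ± 0.30, SE, adjusted p = 0.226). TFPI2 thus exceeded every member in each library, and its groups did not overlap. RECK, a membrane-anchored inhibitor of metalloproteinases, was at 9.80, 35.5 and 17.3 FPKM in HEN ovaries, against 10.4 to 15.5 FPKM in LEN ovaries.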

How the data were processed

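RNA of ovarian tissue was extracted with Trizol and sequenced with Illumina reagents, per the labels' protocols. The deposited table holds FPKM per duck transcript as the authors computed it, in 17191 rows of which 22 repeat a transcript. Aligner, counting tool, build and strandedness are not given in the sources used here, and coordinates are those of the deposited table. Library depth was inferred from short noncoding genes, whose low values are whole fragment numbers within 0.02 of a fragment. This covers counting error only.

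Differences are on the log2(FPKM + 1) scale, on which changes of low genes come out too small. For transcripts averaging 1 FPKM or more, HEN minus LEN was tested in limma 3.58.1 under R 4.3.3 (empirical Bayes test with trend, group as the only term, two-sided, Benjamini-Hochberg adjustment over all 13328 transcripts, threshold 0.05). The steps were checked on simulated data. There the libraries of a group were drawn alike and with a capped spread, so the check does not cover a group as uneven as HEN. No count test was run on FPKM. With 3 ducks a group, exact permutation of 1 value has 0.1 as its smallest two-sided p. No label gives a batch.

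Members, lists and alternatives were chosen with earlier results of these data known. Given in full are all TIMP, HTRA and plasminogen activator members, the 4 highest and the 4 with the smallest unadjusted p in the ADAM, ADAMTS and ADAMTS-like classes, and 6 of each among serpins; the further members of these classes were added in brief. List symbols were matched through the table or, where it gives none, through Entrez identifiers in a RefSeq gene table of another assembly. Alternatives were another pseudocount, other filters, 3 scalings, library weights, the replicate number as a block and leaving out libraries.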

Additional observations from a re-analysis of the deposited data

How the results depend on the processing

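Leaving out each library in turn, limma called 0 to 6501 of 13328 transcripts, 0 to 26 of 39 members and 0 to 34 of 73 partner list genes. Calls were made only without HEN replicate 1, where 11.8% of all transcripts were called as higher and 37% as lower. Of the list genes, 23 were then called as higher and 11 as lower. The members' median ranged from 0.32 (without HEN replicate 2) to 0.92 (without HEN replicate 1). With arrayWeights limma called 7922 of 13328 transcripts (16.5% higher, 43% lower), where it called 0 without weights. It then called 30 of 39 members (21 higher, 9 lower) and 49 of 73 list genes (32 higher, 17 lower), again with 0 of each without weights. With a pseudocount of 0.1 it called 1 transcript, no member. Without HEN replicates 2 and 3 it called 1 transcript, and the members' median was 0.12. After quantile normalization that median was 1.02. The causes of these shifts were not tested.

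Directions that turned were those of ADAM11 after quantile normalization (0.02), ADAMTSL2 with arrayWeights (-0.03), PLAT without HEN replicate 3 (-0.03) and SERPINF1 without LEN replicate 1 (0.31; its leave-one-out values ran from -1.35 to 0.31). Without HEN replicates 2 and 3 they were those of ADAM9 (-0.15), ADAM23 (-0.43), ADAMTS5 (-0.33), HTRA1 (-0.15), HTRA2 (0.13), SERPINB2 (-0.55), SERPINF1 (0.87) and SERPINF2 (1.1). The other members among the 28 given in full kept their direction in every alternative run. Of those given in brief, ADAM8 (-0.08), ADAM19 (0.25), ADAM22 (0.02), ADAMTS8 (0.31), ADAMTS10 (0.28), ADAMTS13 (-0.0030), ADAMTS15 (-0.07), ADAMTS17 (0.02) and SERPINC1 (-0.25) turned too without HEN replicates 2 and 3. ADAM19 (0.03) and ADAMTS17 (0.03) turned without HEN replicate 2, and ADAMTS10 without HEN replicate 3 (0.15) and without LEN replicate 3 (0.03). Quantile normalization turned ADAM19 (0.31), ADAM22 (0.25), ADAMTS3 (0.05), ADAMTS8 (0.01), ADAMTS10 (0.32) and ADAMTS17 (0.21), the last pair also under both other scalings.

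The replicate number as a block gave 0 called transcripts, members and list genes, with 14 higher and 4 lower members at an unadjusted p under 0.05, against 9 and 3 without it. Over all 13328 transcripts these were 597 higher and 2203 lower with the block, against 680 and 2249 without it. Deviations from the group means of same-numbered libraries correlated at 0.0168, 0.382 and -0.423, and 1 of 3 HEN libraries correlated best with its own number. The labels do not state that the numbers pair the ducks, and correlations among so few libraries cannot decide it.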

Other observations

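HEN replicates 2 and 3 differed for some members. Of 39 members, 19 were within 1.5 times of each other between these libraries and 13 were more than 2 times apart. The same shares over all transcripts were not computed, so these counts do not set the members apart from other genes. TIMP4 was 7.29 times, ADAM22 4.53 times, SERPINB2 3.95 times and SERPIND1 2.84 times as high in HEN replicate 2 as in HEN replicate 3. ADAM22 was low in both, at 1.13 and 0.249 FPKM. SERPINB10 went the other way, at 3.26 FPKM in HEN replicate 2 and 9.71 FPKM in HEN replicate 3. Some partner genes, named here after their values were seen, stood apart in HEN replicate 2. FGG, a fibrinogen chain, was at 24.3 FPKM there, against 3.42 and 2.35 FPKM in HEN replicates 1 and 3 and 1.83 to 4.32 FPKM in LEN. The other fibrinogen chains, FGA and FGB, did not exceed 0.0472 and 0.189 FPKM in any library. HAPLN1, a link protein of hyaluronan matrix, was at 5.98 FPKM there, against 0.437 and 0.684 FPKM in HEN replicates 1 and 3 and 0.136 to 0.419 FPKM in LEN. RELN, a matrix glycoprotein cut by ADAMTS enzymes in mammals, was at 28.8 FPKM there, against 5.0 and 4.80 FPKM in HEN replicates 1 and 3 and 3.24 to 8.03 FPKM in LEN. In HEN replicate 3 the clotting factor gene F10 was at 81.1 FPKM, against 15.6 and 15.5 FPKM in HEN replicates 1 and 2 and 7.61 to 21.8 FPKM in LEN.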
